A study of Homo sapiens with 12 samples.

Results

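The lysyl oxidases and lysyl hydroxylases that crosslink collagen are 8 genes here, LOX, LOXL1, LOXL2, LOXL3, LOXL4, PLOD1, PLOD2 and PLOD3. They were chosen by gene symbol and all 8 were found among the 57500 gene IDs of the count table. Their RNA was measured in 12 libraries of ribosome-depleted, DNase-treated total RNA. The libraries form 4 groups with 3 biological replicates each and come from 3 established human tumour lines. SW480 came from a primary colorectal cancer and SW620 from a metastasis of the same patient, both untreated and grown in DMEM with serum. PEO4, from ovarian cancer, was kept in RPMI 1640 with serum, either in that medium alone (control) or with 10 ng/mL TGF-β, a cytokine that induces matrix genes, for 6 days. Each colorectal line stands for 1 patient's tumour at 1 site, and no other pair of lines was measured. The cultures are of tumour cell lines, and fibroblasts, which make most collagen in a tumour, are not stated to be part of them.

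Collagen crosslinks are made in 2 steps. Inside the endoplasmic reticulum the PLOD enzymes hydroxylate lysines of procollagen. PLOD1 acts mainly on lysines of the triple helix, PLOD2 on those of the telopeptides at the chain ends, and PLOD3 also adds sugars to hydroxylysine. Outside the cell the copper-dependent LOX enzymes oxidise lysine and hydroxylysine to aldehydes, which then form the covalent links of collagen and elastin. LOX and LOXL1 are close relatives with propeptides, while LOXL2, LOXL3 and LOXL4 carry scavenger receptor domains. LOX and PLOD2 are textbook targets of the hypoxia-inducible factor HIF, and LOX of TGF-β.

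Library totals ranged from 14531420 to 22028956 gene-assigned counts. All 8 genes were above the floor of 3 counts in every library, the lowest count being 27 for PLOD2 in a SW480 library. The label genes CDX2 and PAX8 separated the lines. The intestinal factor CDX2 had 18.8 and 18.3 CPM (read counts scaled to library depth, with TMM factors over the 12 libraries) in SW480 and SW620, while no PEO4 library had more than 3 counts of it. PAX8, a factor of Müllerian tissue, was at 556 and 579 CPM in PEO4 control and TGF-β, against 44.4 and 45.8 CPM in the SW lines. Reads typical of PEO4 were seen at an estimated 1.31% of SW620 replicate 3 and at 0.169% to 0.416% of the other 5 SW libraries, a share read from genes that are high in PEO4 and near 0 in the other SW libraries. SW-like reads could be estimated in 2 PEO4 libraries, from only 2 genes with 13 and 18 reads, at 1.04% of control replicate 3 and 1.37% of TGF-β replicate 3. At those shares 4.72% and 7.48% of the LOXL2 reads, 3.63% and 3.55% of the PLOD3 reads and at most 2.25% of the reads of each other enzyme gene in these libraries would be expected from SW cells. For PLOD2, LOX and LOXL4, the genes with over 2% of their reads in SW620 replicate 3 expected from PEO4, the SW comparison is also given without that library.

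Across the 4 groups PLOD2 had the widest range of levels and PLOD1 the narrowest. The highest group mean was 133 times the lowest for PLOD2, 10.2 times for LOX, 6.23 times for LOXL2, 4.24 times for PLOD3 and 4.21 times for LOXL4. LOXL3, LOXL1 and PLOD1 spanned 2.32, 1.68 and 1.17 times. The lowest PLOD2 mean, in SW480, is as counted, with 13.8% to 35.2% of its reads per library expected from PEO4. Lines differ in tissue and in medium, so levels across lines are a description without a test. The level of a gene in a culture also cannot tell fewer expressing cells from less RNA per cell.

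**Figure D1:**
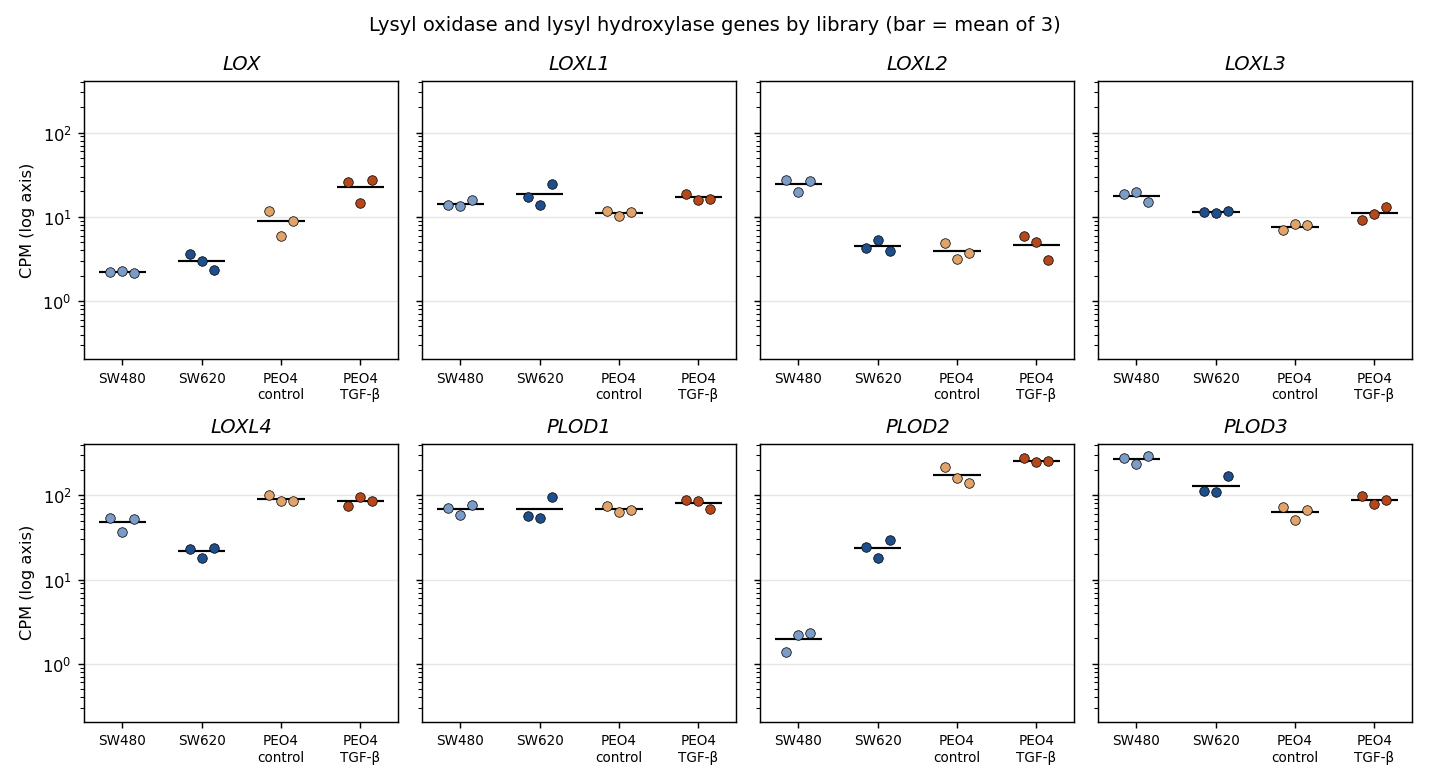
CPM of each of the 8 genes in each library (points, log axis) with the mean of the 3 replicates (bars), by group. PLOD2 lies between 1.36 and 2.32 CPM in SW480 and between 138 and 276 CPM in PEO4, while PLOD1 lies between 54.2 and 96.4 CPM in all 12 libraries.

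In both PEO4 groups PLOD2 was the PLOD gene with the most RNA per length, and in both SW lines it was PLOD3. On the scale of CPM per kilobase of exon, PLOD2 made up 48.1% ± 4.80 of the summed PLOD level in PEO4 control and 52.3% ± 1.16 with TGF-β (SD, n = 3). With reads as counted, it made up 0.428% ± 0.131 in SW480 and 8.08% ± 1.11 in SW620. PLOD3 took 78.1% ± 0.555 in SW480 and 59.0% ± 1.74 in SW620, against 24.0% and 24.2% in the PEO4 groups. The share of PLOD1 ran from 21.4% in SW480 to 32.9% in SW620. The summed PLOD level was 60.3 CPM per kilobase of exon in SW480 and 39.1 in SW620. PLOD1 itself had 12.96 in SW480 and 12.99 in SW620.

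Per kilobase of exon LOXL4 held the largest mean share of the LOX genes in every group. In SW620 this lead was narrow: LOXL1 was above LOXL4 in replicate 3, and, as a group mean, per longest transcript (37.2% against 33.4%) and per coding length (33.9% against 33.5%). LOXL4 made up 50.5% ± 4.16 of the summed LOX-family level in SW480 and 39.5% ± 1.97 in SW620 (SD, n = 3). In PEO4 it held 77.9% ± 1.16 without and 65.7% ± 5.38 with TGF-β. LOX itself went from 4.90% ± 1.196 in PEO4 control to 11.6% ± 3.78 with TGF-β. Its share depends on the length used, since most of its exon bases lie outside the coding part. Per coding length it was 11.9% and 25.3%. In SW480 LOXL1, LOXL2 and LOXL3 had near-equal shares per kilobase of exon, 15.4%, 16.5% and 16.0%. LOXL2 was above the others per longest transcript (16.9%, 22.3% and 16.8%) and per coding length (15.9%, 19.7% and 16.7%). In SW620 LOXL1 reached 33.7% and LOXL2 was at 5.43%. A share also moves with the summed level of the family. In mean CPM per kilobase of exon the LOX-family sum was 25.7906 in SW480 and 14.9991 in SW620. LOXL1 itself had 3.94 in SW480 and 5.13 in SW620 (adjusted p 0.224, edgeR). In PEO4 the sum was 32.04 in control and 35.4 with TGF-β. LOXL4 itself had 24.96 in control and 23.3 with TGF-β (adjusted p 0.548, edgeR).

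**Figure D2:**
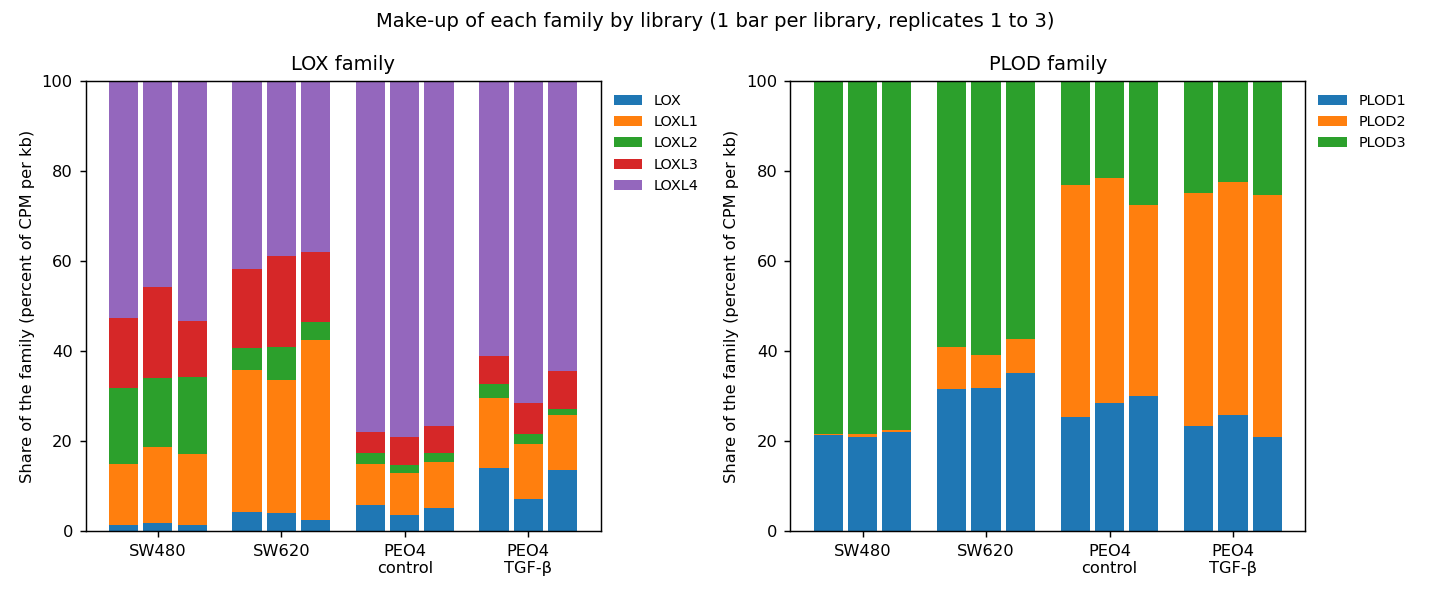
Share of each gene in the summed CPM per kilobase of exon of its family, 1 stacked bar per library, LOX family on the left and PLOD family on the right. PLOD3 fills 78.1% of the SW480 bars on average and PLOD2 about 0.428%, while in PEO4 control PLOD2 fills 48.1%.

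The comparison of SW620 with SW480 sets the metastatic line against the primary line of the same patient. PLOD2 rose and LOXL2, LOXL4, PLOD3 and LOXL3 fell in SW620, while LOX, LOXL1 and PLOD1 did not pass the test. With edgeR 5 of the 8 genes thus had an adjusted p under 0.05, 1 of them higher and 4 lower in SW620, where 30.5% of the 20941 genes tested passed (13.5% higher, 17.0% lower). All 8 passed the filter on low counts. Without SW620 replicate 1 the count was 3, since LOXL3 and PLOD3 no longer passed. The median log2 fold change of the 8 genes was -0.29, beside 0.03 over all genes tested.

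PLOD2, the telopeptide lysyl hydroxylase, had 1.36, 2.17 and 2.32 CPM in the SW480 libraries and 24.2, 17.9 and 29.8 CPM in the SW620 libraries. All 3 SW620 libraries stood far above all 3 SW480 libraries. The change was a log2 fold change of 3.64 ± 0.29 (SE), 12.5-fold, with an adjusted p of 2.73e-05 in edgeR. In counts the gene had 27, 37 and 45 reads in SW480 and 496, 331 and 641 in SW620. From the share of PEO4-like reads, 9.50, 11.8 and 6.23 of the SW480 reads and 55.9 of the 641 reads of SW620 replicate 3 (8.72%) would be expected at the PEO4 level of PLOD2. The expected reads were 35.2%, 31.9% and 13.8% of the PLOD2 reads of the SW480 libraries. With the expected reads taken off, PLOD2 was at 0.882, 1.48 and 2.00 CPM in SW480 and 23.9, 17.5 and 27.2 CPM in SW620. The fold change was not fitted on these values. Without SW620 replicate 3 the log2 fold change, with reads as counted, was 3.45.

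Upstream sequence is shown for PLOD2 and LOX, named above as textbook HIF targets. They had the largest fitted rises in the SW and the PEO4 comparison. Reported links of the other genes to HIF were not reviewed. The windows are from RefSeq on GRCh38.p14, upstream of the most 5′ listed start, and 7 of the 8 genes, all but LOXL2, matched the table. Capitals mark matches on either strand to 2 short motifs that were searched for. The core of the HIF response element was spelled ACGTG, and a CACGTG palindrome counted as 1 match. The box known to be bound by SMAD proteins downstream of TGF-β receptors was spelled CAGAC. The motifs share bases where they run together in capitals. The LOX stretch is the 149 bases at 5:122078361-122078509 on the minus strand, cut where GENCODE 29 begins an exon, and the PLOD2 stretch is the 250 bases at 3:146161185-146161434, also on the minus strand. The PLOD2 window lies before the RefSeq start but inside the gene as GENCODE 29 draws it, in an intron of a longer transcript.
LOX: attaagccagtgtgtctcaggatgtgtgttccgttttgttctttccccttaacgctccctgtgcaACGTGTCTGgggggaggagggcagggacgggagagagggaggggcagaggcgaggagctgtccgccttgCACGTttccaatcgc
PLOD2: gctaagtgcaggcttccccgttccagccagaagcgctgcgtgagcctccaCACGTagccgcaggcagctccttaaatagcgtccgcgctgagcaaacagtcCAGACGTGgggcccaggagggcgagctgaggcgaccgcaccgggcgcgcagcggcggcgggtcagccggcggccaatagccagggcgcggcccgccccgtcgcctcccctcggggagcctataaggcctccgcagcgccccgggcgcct

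In the whole 250 bases before its start LOX held 4 HIF cores, 2 of them in the stretch shown, and PLOD2 held 2. Of the 27305 genes listed there, 0.106% had at least 4 and 2.68% at least 2. LOXL1, LOXL3, LOXL4, PLOD1 and PLOD3 had 0, a count that 18.6% of all genes exceeded. The SMAD box stood once each in LOX, LOXL1 and PLOD2, as it did at least once in 37.9% of all genes, and not in the other 4 windows. These matches describe letters in a window and say nothing on binding.

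LOXL2, which oxidises basement membrane and fibrillar collagen, had 27.2, 19.4 and 26.5 CPM in SW480 and 4.24, 5.34 and 3.95 CPM in SW620. The lowest SW480 library was above the highest SW620 library by more than 3 times. LOXL2 fell by 2.41 ± 0.22 on the log2 scale, with an adjusted p of 5.94e-05 in edgeR. In PEO4 it was as low as in SW620, at 3.91 CPM in control, and the libraries of SW620 and PEO4 overlapped. LOXL2 shares 120 exon bases with ENTPD4 on the same strand, and ENTPD4 also fell, by 0.94, with an adjusted p of 0.00151 in edgeR.

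LOXL4 had 53.9, 37.0 and 52.9 CPM in SW480 and 23.1, 18.2 and 23.7 CPM in SW620. The 2 sets of libraries did not overlap. LOXL4 fell by 1.13 ± 0.20 on the log2 scale (adjusted p 0.00231, edgeR), and without SW620 replicate 3 it still passed (adjusted p 0.00279). Both SW lines were below PEO4, where control libraries had 86.1 to 101 CPM.

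PLOD3, the glycosyltransferase and lysyl hydroxylase, had 278, 233 and 290 CPM in SW480 and 113, 110 and 167 CPM in SW620. Every SW480 library was above every SW620 library, and SW620 replicate 3 was the highest of its group. PLOD3 fell by 1.02 ± 0.21 on the log2 scale, with an adjusted p of 0.00585 in edgeR. Without SW620 replicate 1 the adjusted p was 0.0589. PLOD3 shares 7.56% of its exon bases with ZNHIT1 on the opposite strand, which fell by 0.83 (adjusted p 0.019, edgeR), and strand use in counting is not given in the sources used here.

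LOXL3 had 18.8, 19.4 and 14.9 CPM in SW480 and 11.5, 11.2 and 11.6 CPM in SW620. The libraries did not overlap, and SW480 replicate 3 was nearest to SW620. LOXL3 fell by 0.61 ± 0.18 on the log2 scale with an adjusted p of 0.0277 in edgeR. The call was lost, with adjusted p from 0.0603 to 0.161, without SW480 replicate 1, SW480 replicate 2, SW620 replicate 1 or SW620 replicate 2, and in 4 other settings. LOXL3 shares 14.3% of its exon bases with HTRA2 and 4.95% with DOK1 on the opposite strand. DOK1 fell by 1.09 (adjusted p 0.00593, edgeR) and HTRA2 had a log2 fold change of -0.73 (adjusted p 0.0755).

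LOX, the founding member of its family, was at 2.22, 2.28 and 2.16 CPM in SW480 and 3.61, 2.97 and 2.32 CPM in SW620. The libraries did not overlap, by the narrow gap between 2.28 and 2.32 CPM. The log2 fold change was 0.44, with a 95% interval from -0.45 to 1.33 and an adjusted p of 0.350 in edgeR. In SW620 replicate 3, 8.21% of the 50 LOX reads would be expected from the PEO4-like share, and leaving out this replicate gave 0.58 (log2, adjusted p 0.215, edgeR). With the expected reads taken off, SW620 replicate 3 was at 2.13 CPM and the SW480 libraries at 2.14 to 2.23 CPM, so that LOX then overlapped. With LOX as counted, 6 of the 8 genes did not overlap between the lines, 2 higher and 4 lower in SW620, where 44.2% of all genes tested did not overlap and 20.8% were higher in every SW620 library.

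LOXL1, which is needed for elastic fibres, had 13.7, 13.6 and 15.7 CPM in SW480 and 17.4, 13.8 and 24.8 CPM in SW620. SW620 replicate 2 lay within the SW480 range. The log2 fold change was 0.40 (95% interval -0.23 to 1.03, adjusted p 0.224 in edgeR). Without SW620 replicate 2 it was 0.63, with an adjusted p of 0.0366, and without SW620 replicate 3 it was 0.13, with an adjusted p of 0.652.

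PLOD1, the helical lysyl hydroxylase, had 70.9, 58.6 and 77.3 CPM in SW480 and 56.8, 54.2 and 96.4 CPM in SW620. The groups overlapped, with SW620 replicate 3 above and the other SW620 libraries below every SW480 library. The log2 fold change was 0.02, with a 95% interval from -0.64 to 0.68 (adjusted p 0.955, edgeR). Its sign turned in 5 alternatives, among them the removal of SW620 replicate 3, which gave -0.30.

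**Figure D3:**
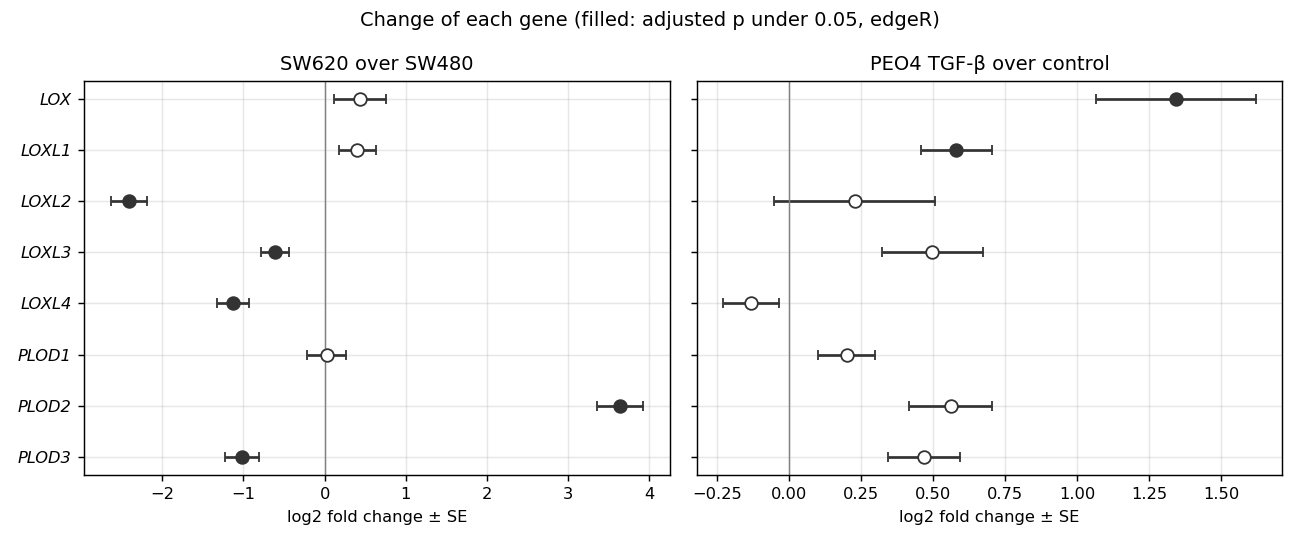
Log2 fold change of each gene with its standard error (bars) from edgeR, SW620 over SW480 on the left and PEO4 with TGF-β over control on the right, on axes of different width. Filled points have an adjusted p under 0.05: 5 genes on the left, where PLOD2 is at 3.64 and LOXL2 at -2.41, and LOX and LOXL1 on the right.

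The comparison within PEO4 asks what 6 days of TGF-β changed. LOX and LOXL1 rose, and the other 6 genes did not pass the test. These 2 of 8 genes had an adjusted p under 0.05 in edgeR, both higher, where 2.26% of the 19064 genes tested passed (1.27% higher, 0.991% lower). All 8 passed the filter on low counts, and 5 had an unadjusted p under 0.05. Log2 fold changes were positive for 7 of the 8, with a median of 0.48 beside -0.02 over all genes tested. For 5 genes all TGF-β libraries were above all control libraries, as held for 11.1% of genes tested, and 21.5% did not overlap in either direction. The count of passing genes rests on single libraries: it was 0 without TGF-β replicate 1, TGF-β replicate 3, control replicate 2 or control replicate 3, 1 without TGF-β replicate 2, and 4 without control replicate 1.

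LOX had 11.6, 5.94 and 8.86 CPM in the control libraries and 26.0, 14.7 and 27.3 CPM with TGF-β. All 3 treated libraries were above all 3 controls, and replicate 2 was the lowest of both groups. In counts these were 203, 103 and 171 reads against 472, 267 and 552. The log2 fold change was 1.34 ± 0.28 (SE), 2.54-fold, with an adjusted p of 0.0439 in edgeR. Leaving out 1 library gave log2 fold changes from 1.15 to 1.60, and adjusted p rose to 0.0981 without control replicate 3, 0.106 without TGF-β replicate 3, 0.162 without TGF-β replicate 1 and 0.20 without control replicate 2. The authors' deposited table has a log2 fold change of 1.35 and an adjusted p of 4.21e-05 for LOX.

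LOXL1 had 11.8, 10.2 and 11.4 CPM in control and 18.9, 16.0 and 16.1 CPM with TGF-β. The groups did not overlap. The log2 fold change was 0.58 ± 0.12, with an adjusted p of 0.0493 in edgeR, just inside the threshold. It passed in 7 of 18 alternatives. The 5 removals that lost it, with adjusted p from 0.0952 to 0.219, were those of TGF-β replicates 1, 2 and 3 and of control replicates 2 and 3. LOXL1 shares 9.21% of its exon bases with the antisense RNA LOXL1-AS1, whose log2 fold change was 0.25 (adjusted p 0.338, edgeR).

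PLOD2 had 217, 161 and 138 CPM in control and 276, 245 and 254 CPM with TGF-β. Every treated library was above every control, and control replicate 1 was nearest. The log2 fold change was 0.56 ± 0.14 with a 95% interval from 0.16 to 0.96 and an adjusted p of 0.0890 in edgeR. Without control replicate 1 it was 0.75, with an adjusted p of 0.00694. In the authors' deposited table the adjusted p of PLOD2 is 0.00592, at a log2 fold change of 0.56.

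PLOD3 and LOXL3 were also higher in every treated library than in any control library, without passing the test. PLOD3 had 71.7, 51.4 and 65.9 CPM in control and 98.3, 79.0 and 89.0 CPM with TGF-β, a log2 fold change of 0.47 (adjusted p 0.100, edgeR). Without control replicate 1 the adjusted p of PLOD3 was 0.0466. The authors' deposited table has 0.0212 for PLOD3. LOXL3 had 6.88, 8.14 and 7.93 CPM in control and 9.20, 10.7 and 13.2 CPM with TGF-β, a log2 fold change of 0.50 (adjusted p 0.198, edgeR).

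PLOD1, LOXL2 and LOXL4 had libraries that overlapped between control and TGF-β. PLOD1 had 74.6, 63.6 and 67.7 CPM in control and 87.0, 85.7 and 68.8 CPM with TGF-β, with a log2 fold change of 0.20 (adjusted p 0.358, edgeR). LOXL2 had 4.93, 3.12 and 3.68 CPM in control and 5.95, 5.02 and 3.06 CPM with TGF-β. Its log2 fold change of 0.23 had a wide 95% interval from -0.55 to 1.00 (adjusted p 0.735, edgeR). LOXL4, the LOX-family gene with the most RNA per length in PEO4, had 101, 86.1 and 86.6 CPM in control and 74.6, 95.5 and 85.2 CPM with TGF-β. Its log2 fold change was -0.13 (adjusted p 0.548, edgeR), with a 95% interval from -0.40 to 0.14, which leaves out a 2-fold change in either direction.

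**Figure D4:**
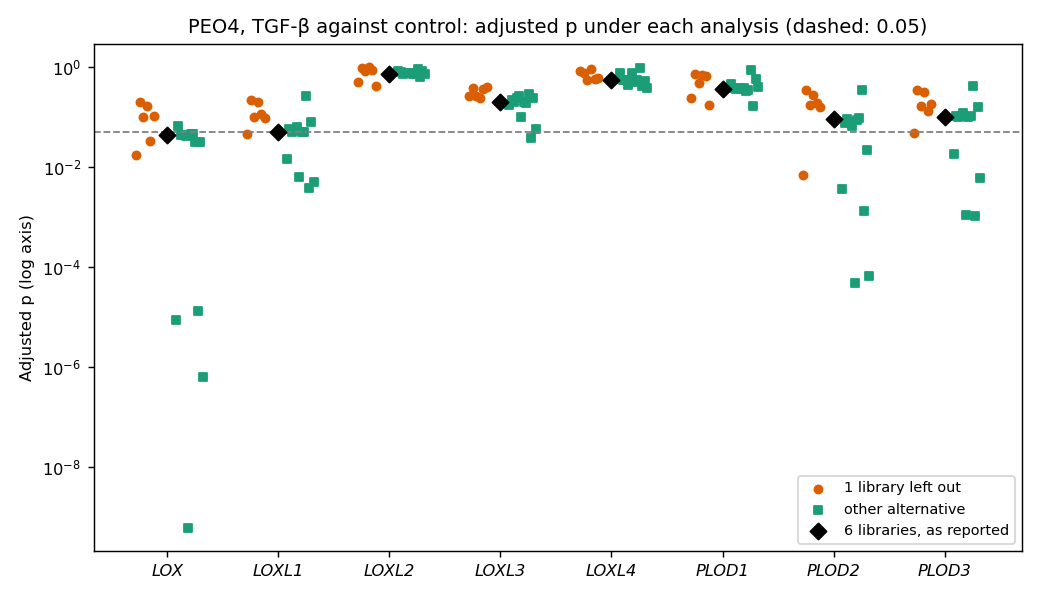
Adjusted p of each gene (log axis) for TGF-β against control in PEO4, as reported (diamonds), with 1 library left out (circles) and under the other alternatives (squares). LOX and LOXL1 lie close to the dashed line at 0.05, with points on both sides, while LOXL2, LOXL4 and PLOD1 stay above it throughout.

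The other procollagen-modifying enzymes of the endoplasmic reticulum, 15 genes of prolyl hydroxylation, chaperones and glycosylation, did not move one way in SW620. Of them 2 rose, 5 fell and 8 did not pass, with a median log2 fold change near 0 (0.00047). COLGALT2, which adds galactose to hydroxylysine, rose from 34.4 to 210 CPM (log2 fold change 2.63, adjusted p 1.5e-05, edgeR). P4HA1, a catalytic subunit of prolyl 4-hydroxylase, rose by 1.34. The sister subunit P4HA2 fell by 1.82, and CRTAP, a partner of prolyl 3-hydroxylase, fell by 1.98 from 210 to 52.8 CPM. P4HA3 fell by 1.72 from a low 2.84 CPM. That call was lost without SW480 replicate 1, SW480 replicate 3, SW620 replicate 1 or SW620 replicate 3, and without SW620 replicate 2 the value was -2.43. With TGF-β in PEO4, 1 of 14 tested genes rose, P4HA2, by 0.62 on the log2 scale (adjusted p 0.0454, edgeR), and 13 did not pass. P4HA2 no longer passed without control replicate 2, control replicate 3, TGF-β replicate 1 or TGF-β replicate 2.

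Of 5 tested basement membrane collagen genes 4 fell in SW620 and none rose, with a median log2 fold change of -1.52. COL4A2 fell by 1.08 from 42.2 to 19.7 CPM, COL4A1 by 2.61, COL4A4 by 1.52 and COL4A5 by 2.26, the last 3 from under 4 CPM. COL4A5 had 3 to 6 counts per SW620 library and COL4A1 3 to 14, so their fitted falls cannot be read as sizes. The count was 2 without SW480 replicate 3 or without SW620 replicate 1, and COL4A1 was at -3.31 without SW620 replicate 2. COL4A4 was also lost without SW480 replicate 1, SW480 replicate 2, SW620 replicate 2 or SW620 replicate 3. In PEO4 with TGF-β none of 5 such genes passed in edgeR, 0 had an unadjusted p under 0.05, and DESeq2 and limma-voom called 0.

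Of 9 tested fibrillar collagen genes 2 rose and 1 fell in SW620. COL27A1 rose by 2.56 on the log2 scale, from 7.43 to 43.2 CPM (adjusted p 0.00109, edgeR). COL11A1 had at most 3 counts in SW480 libraries and 2.21 CPM in SW620, at least 13.8-fold higher against a floor of 3 counts per library. COL1A1, a chain of type I collagen, fell by 1.44 from 11.8 to 4.29 CPM. Without SW620 replicate 2 the list had 5 passing genes, 2 higher and 3 lower. In PEO4 with TGF-β COL3A1 rose by 2.75, from 2.68 to 18.3 CPM, and COL5A1 by 2.28, from 12.4 to 61.0 CPM, and 5 of 7 tested genes did not pass.

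Elastic fibre genes, whose elastin is crosslinked by LOX and LOXL1, went both ways in SW620, with 3 higher, 3 lower and 5 not passing of 11 tested. FBLN1 rose by 0.99. FBLN2 (3.44) and ELN, elastin itself (2.30), also passed, with fitted values that rest on 1 to 4 and 1 to 6 counts per SW480 library and cannot be read as sizes; in SW620 they had 1.78 and 0.729 CPM. FBLN5 fell from 3.61 CPM in SW480 to 0 to 5 counts per SW620 library, so its fitted fall of 4.40 cannot be read as a size either. EFEMP2 fell by 1.17 and LTBP4 by 0.57. The count of 6 went to 3 without SW480 replicate 3 or SW620 replicate 1. ELN passed in 1 of the 6 removals, that of SW480 replicate 2, where it was 3.69. LTBP4 passed in 1 of the 6, that of SW620 replicate 3, and FBLN1 was lost without SW480 replicate 3, SW620 replicate 1 or SW620 replicate 3. In PEO4 1 of 12 genes rose with TGF-β, FBN1 (fibrillin-1), by 1.78 from 17.6 to 61.7 CPM (adjusted p 0.0122, edgeR), and it did not pass without control replicate 2. The count there was 2 without control replicate 1.

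Of 9 tested genes that process procollagen or bind LOX, such as fibronectin, 1 rose and 4 fell in SW620. FMOD, a collagen-binding proteoglycan, had at most 3 counts in SW480 libraries and 3.41 CPM in SW620, at least 21.3-fold higher against the same floor. The protease gene TLL2 fell from at most 39 counts in SW480 libraries to at most 4 in SW620 libraries. Its fitted fall of 3.36 cannot be read as a size. The enhancer PCOLCE fell by 2.72 and FN1, fibronectin, by 2.07 from 224 to 52.5 CPM (adjusted p 7.2e-05, edgeR). In PEO4 2 of 10 rose with TGF-β, FN1 by 2.81 and THBS1 by 2.43. FN1 was lost without control replicate 2, control replicate 3, TGF-β replicate 1 or TGF-β replicate 2, and was 3.74 without control replicate 1. THBS1 was lost without control replicate 2.

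Copper reaches the LOX enzymes in the secretory pathway through the pump ATP7A, fed by the chaperone ATOX1. In SW620 ATP7A rose by 0.99 (19.8 to 38.6 CPM), while ATOX1 fell by 1.46 (45.6 to 16.4 CPM) and ATP7B, the related pump, by 1.56 (29.9 to 10.0 CPM). The adjusted p were 0.00203, 0.000438 and 9.94e-05 in edgeR, and the other 4 of 7 copper genes did not pass. With TGF-β none of the 7 passed in edgeR, 1 had an unadjusted p under 0.05, and DESeq2 and limma-voom called 0.

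**Figure D5:**
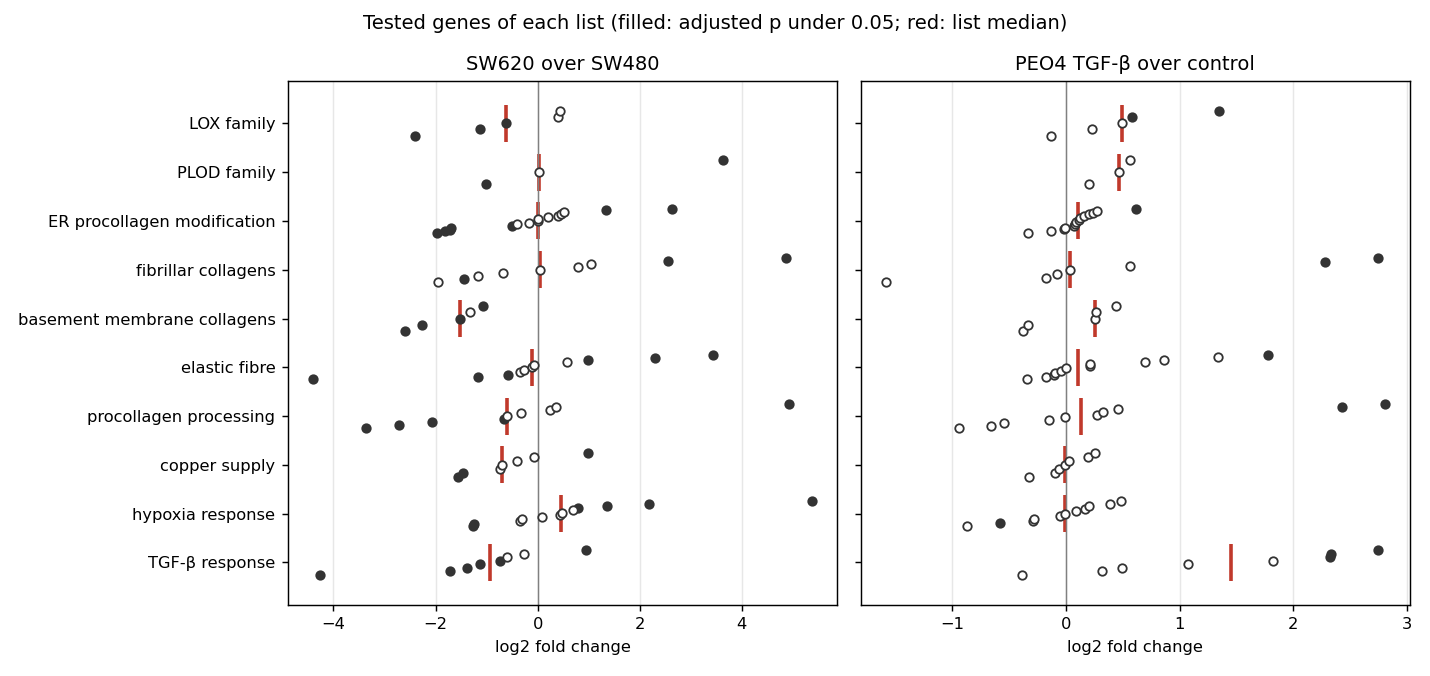
Log2 fold change of each tested gene by list, SW620 over SW480 on the left and TGF-β over control in PEO4 on the right; filled points have an adjusted p under 0.05 in edgeR and red bars are list medians. COL11A1 and FMOD are drawn at fitted values although SW480 is at the floor, and the basement membrane median on the left is -1.52.

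Genes that respond to hypoxia, the setting in which LOX and PLOD2 are best known, did not all move one way in SW620. A part of hypoxia or HIF in the changes of LOX and PLOD2 was not tested. Of 12 tested hypoxia genes 4 rose, 2 fell and 6 did not pass, with a median log2 fold change of 0.46. CA9 rose by 5.38 from 0.883 to 36.2 CPM, VEGFA by 2.18 from 36.8 to 164 CPM and EGLN3 by 1.36. NDRG1 fell by 1.27, from 69.0 to 28.2 CPM, and ADM by 1.24. ADM was lost without SW480 replicate 1, SW480 replicate 3, SW620 replicate 1 or SW620 replicate 2. In PEO4 with TGF-β none of 11 rose and PDK1 fell by 0.58 (adjusted p 0.0404, edgeR). PDK1 was lost without control replicate 2, control replicate 3, TGF-β replicate 1 or TGF-β replicate 2, and 1 gene rose without control replicate 1.

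Of 8 genes known to be induced by TGF-β, 3 rose in PEO4, none fell and 5 did not pass. LTBP2 rose by 2.74 from 32.9 to 224 CPM, TGFBI by 2.33 from 3.96 to 20.3 CPM and PMEPA1 by 2.32 from 104 to 526 CPM. PMEPA1 was lost without control replicate 2, TGF-β replicate 1 or TGF-β replicate 2, and was 3.04 without control replicate 1. The count was 5 without control replicate 1 or control replicate 3. In SW620 1 of the 8 rose and 5 fell against SW480. LTBP2 fell by 4.26 from 73.0 to 3.75 CPM (adjusted p 2.79e-06, edgeR) and SMAD7 fell by 1.72, while TGFBI rose by 0.95. The count of 6 went to 3 without SW480 replicate 1, SW480 replicate 3 or SW620 replicate 1. TGFBI was lost without SW480 replicate 2, SW480 replicate 3, SW620 replicate 1 or SW620 replicate 3.

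Fibroblast markers were looked at beside these values, since stromal cells make much LOX and collagen. Summed over 7 markers they had 4.63 to 5.29 CPM in SW480, 8.92 to 18.2 in SW620, 230 to 362 in PEO4 control and 271 to 385 with TGF-β. The PEO4 sums are nearly all THY1, a surface protein at 228 to 359 CPM in control and 265 to 380 with TGF-β. Without THY1 the other 6 markers summed to 2.25 to 2.98 CPM in PEO4 control, 5.13 to 6.23 with TGF-β, 3.75 to 4.69 in SW480 and 7.60 to 15.1 in SW620. The upper value in SW620 was 11.1 CPM without SW620 replicate 3. FAP had at most 3 counts in the libraries of SW480, SW620 and PEO4 control, PDGFRA in those of SW480 and both PEO4 groups, and DCN in those of SW480 and PEO4 with TGF-β. In SW620 1 of 4 tested markers, LUM, rose to 7.07 CPM from at most 6 counts per SW480 library. Its fitted rise of 4.71 therefore cannot be read as a size. Without SW620 replicate 2, 3 passed. In PEO4 none of 3 passed in edgeR, 2 had an unadjusted p under 0.05, DESeq2 called 1 and limma-voom 0. The part of such cells or states in the values of the 8 genes was not tested.

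By Pearson correlation of log2 CPM over the 12 libraries, the genes most like each enzyme gene were found among 18603 named genes. The 12 points fall into the 3 lines, so r mainly follows the differences between lines, and it carries no test. MGST1, PEX2 and GRAMD2B were most like PLOD2 (r 0.996, 0.993 and 0.992). MGST1 had 125 and 142 CPM in the PEO4 groups, 8.87 in SW480 and 35.0 in SW620. ANKLE2, SPP1 and NEGR1 were most like LOX (r 0.980, 0.971 and 0.970). ADAMTS8, KCNK13 and THSD1 were most like LOXL2 (r 0.984, 0.983 and 0.983), and ADAMTS8 had 33.7 CPM in SW480 and under 0.5 CPM in the other 3 groups. AMOTL2, RIOK3 and NCKAP1 were most like LOXL4 (r 0.994 each), and ATP1B3, AAED1 and ALAS1 most like PLOD3 (r 0.990, 0.989 and 0.987). The nearest genes of LOXL3 (MIR503HG, STK31, CELF5), PLOD1 (MUL1, LSM10, DHCR7) and LOXL1 (CDC34, SPINDOC, DUSP7) had r from 0.919 to 0.958.

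On GRCh38 with GENCODE 29 the 8 genes lie on 8 chromosomes, and all are protein-coding. LOX is at 5:122063195-122078360 on the minus strand and PLOD2 at 3:146069440-146163653, also minus. LOXL1 is at 15:73925989-73952137 and PLOD1 at 1:11934205-11975538, both on the plus strand. LOXL2 (8:23297189-23425328), LOXL3 (2:74532414-74555690), LOXL4 (10:98247690-98268250) and PLOD3 (7:101205977-101218420) are on the minus strand. No gene of the group sits beside another, so the counts of 1 member do not share reads with those of another by position.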

How the data were processed

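Values in the deposited count table are raw whole-number counts for each Ensembl gene, checked on the values. The authors' deposited comparison tables hold a signal per library (the count divided by 1 size factor), a log2 fold change, a p-value and its adjusted form, and served only for the values credited to them. Per the submitters' processing notes the tools were Trimmomatic 0.36, STAR 2.5.2b, featureCounts (Subread 1.5.2) and DESeq2 on GRCh38. Annotation and strand setting are not given in the sources used here. Positions, lengths and overlaps are from GENCODE 29, which holds 56898 of the 57500 IDs and need not be the annotation behind the counts. No symbol is given for 485 IDs.

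The 6 libraries of a comparison were fitted over all genes with edgeR 4.0.16 in R 4.3.3 (filterByExpr, TMM factors, glmQLFit and glmQLFTest, two-sided, Benjamini-Hochberg adjustment, threshold 0.05). SE were taken as the absolute log2 fold change divided by the root of the F statistic, and 95% intervals use that SE with 4 residual degrees of freedom. Adjusted p from edgeR are meant where no tool is named. CPM are scaled by TMM factors over the 12 libraries, and CPM per kilobase use the union of exons. The floor for a count of 0 is 3 counts (0.136 to 0.206 CPM by library) and covers counting error only, since no molecular identifiers are stated. Replicates are stated to be biological, with no word on separate cultures, so p-values measure the spread between these libraries. With 3 libraries per group an exact permutation test reaches no p below 0.10. Named are all 8 members and, of each list, at most the 3 highest and the 3 lowest log2 fold changes past the threshold, with the 3 most alike genes of each member. Of the list genes that this rule names, 1 is not reported here.

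The members, the 12 gene lists of related function or cell type and the tests were chosen with earlier results of these data known. Lists are described by counts and medians. The epithelial, colorectal and ovarian lists describe the lines. Their counts of changed genes are no check of the tissue a line came from. In SW620 they had 0 of 5, 3 of 4 and 3 of 7 tested genes past the threshold, all higher. The ovarian-list genes higher in the colorectal line SW620 were WT1, MSLN and FOLR1 (log2 fold change 2.38, 1.34 and 2.26). With TGF-β the lists had 0 of 5, 0 of 1 and 3 of 7, all lower. DESeq2 and limma-voom also called 0 of the epithelial genes, of which 0 in SW620 and 2 with TGF-β had an unadjusted p under 0.05. Alternatives were DESeq2 1.42.0, limma-voom (limma 3.58.1), other scalings and filters, all libraries in 1 model, a replicate block and leaving out each library. A GC correction (loess span 0.3), run by itself and together with the block, was chosen after seeing the data. The fits were tested on simulated data.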

Additional observations from a re-analysis of the deposited data

How the results depend on the processing

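In SW620 against SW480 the calls of PLOD2, LOXL2 and LOXL4 held in all 18 alternatives run, that of PLOD3 in 17 and that of LOXL3 in 10. LOXL3 was also lost with DESeq2 (adjusted p 0.0579), total-count scaling (0.0589), no filter (0.0652) and the GC correction (0.117). The authors' deposited table has an adjusted p of 0.0122 for LOXL3, at a log2 fold change of -0.61. The number of enzyme genes called was 3 to 5 when 1 library was left out and 6 with the replicate block, alone or with the GC correction. Genes called in all, 6385 in the report, were 10667 with the replicate block, 11291 with the block and the GC correction, and 4253 to 7419 with 1 library left out. PLOD1 turned sign with limma-voom (-0.018), the replicate block (-0.015), removal of mitochondrial and small RNA genes (-0.0067), and without SW480 replicate 2 or SW620 replicate 3 (range with 1 library left out -0.30 to 0.22). LOXL1 passed with the replicate block (adjusted p 0.0476). Of the label genes, which did not pass, CDX2 turned sign with total-count scaling (0.011), the GC correction (0.16), that correction with the block (0.15) and single removals (those of SW480 replicate 3 and SW620 replicates 1 and 2, in a range from -0.22 to 0.13 with 1 library left out), and PAX8 without SW480 replicate 3 or SW620 replicate 2 (range -0.12 to 0.32). The GC correction moved the median of all genes by 0.11 on the log2 scale and the share of higher calls from 44.4% to 52.5%, and to 55.8% with the block.

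In PEO4 no enzyme gene turned sign, and the cause of the changes in calls below was not tested. Of the 8 genes 4 passed with DESeq2, no filter or the GC correction with the block, 5 with the replicate block, 1 with upper quartile or total-count scaling, with at least 10 counts in every library or with all 12 libraries in 1 model, and 0 with limma-voom, where LOX had an adjusted p of 0.0653 (1 library left out: 0 to 4). PLOD2 and PLOD3 were the genes gained with DESeq2, at adjusted p of 0.0036 and 0.0182, and LOXL3 also passed with the block, at 0.0374. Under the GC correction alone the count stayed at 2, with LOXL1 lost (adjusted p 0.0774) and PLOD2 gained (0.0214). Across the 18 alternatives PLOD2 passed in 6 and PLOD3 in 5. Genes called in all, 431 in the report, were 923 with DESeq2, 1457 with no filter, 165 with 12 libraries in 1 model, 2102 with the replicate block, 1807 with the block and the GC correction, and 72 to 1080 with 1 library left out. Of calls without control replicate 1, 67.6% were higher, against 56.1%. PAX8, which did not pass, turned sign with the GC correction (-0.011), that correction with the block (-0.014) and without TGF-β replicate 1 (range with 1 library left out -0.052 to 0.080).

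Same-numbered replicates correlated in their deviations at 0.02, 0.67 and 0.57 for the SW lines and 0.29, -0.14 and 0.48 for PEO4. Differently numbered replicates correlated at -0.63 to 0.27 for the SW lines and at -0.49 to 0.24 for PEO4. Deviations are taken from the group mean and cancel within a group. The differently numbered values are therefore tied to the same-numbered ones and are no separate contrast. Whether the numbers mark shared batches was not tested. The main fits have no block because nothing in the sources used here states that the numbers pair libraries. A call gained or lost under the block is not read as a change of effect. Depth limits LOX in the SW lines (39 to 74 counts) and PLOD2 in SW480 (27 to 45 counts).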
